A study of Mus musculus with 4 samples.

Results

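The matrix metalloproteinases (MMPs) and their tissue inhibitors (TIMPs) were examined in mouse dendritic cells (DCs) as a family of 10 genes. The 10 are Mmp2, Mmp8, Mmp9, Mmp12, Mmp13, Mmp14, Mmp19, Timp1, Timp2 and Timp3. They were chosen by name, and every probe set that the array annotation gives to exactly 1 of these symbols was used, which made 23 of 45037 probe sets and 10 of 18193 genes. The cells were grown from bone marrow for 6 to 7 days with GM-CSF at 20 ng/mL, and non-adherent cells were enriched for the integrin CD11c on beads. There were 4 groups with 1 array each. LXR-DKO LPS cells lacked both LXRalpha and LXRbeta and were kept for 24 h with GM-CSF at 10 ng/mL plus lipopolysaccharide (LPS) at 100 ng/mL, and LXR-DKO control cells were kept for 24 h with GM-CSF alone. WT LPS and WT control cells came from wild-type mice and were treated in the same way. Strain C57/BL6 is given for all 4 samples, and the labels do not say how many mice or cultures stand behind an array. Because no group has a second array, no difference below has a replicate check and no test was made.

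MMPs are zinc-dependent proteases that cut collagens, elastin, basement membrane and many cell surface proteins. They are made as inactive precursors in which a cysteine of the propeptide blocks the active site, and TIMPs bind the active enzymes and inhibit them. DCs use them to cross basement membrane and tissue on their way to lymph nodes, and Mmp9 is the member best known for this in mouse skin. LXRs are nuclear receptors that oxysterols activate, and in mouse macrophages LXR agonists are known to lower the induction of Mmp9 by inflammatory stimuli. LPS activates Toll-like receptor 4 and is used here to mature the cells.

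Values are array signals on a linear scale. A floor was set at 28.9, the median signal of all probe sets, and lower values were raised to it in ratios, so a ratio that involves one is a limit on the size of the difference. Between 47.8% and 52.6% of probe sets reached the floor on an array. Each gene is given by its probe set with the highest mean signal, and a difference of at least 2-fold, a log2 ratio of 1, was counted. The only error the arrays give is the standard deviation (SD) of a log2 ratio among probe sets of 1 gene, called the spread here. The spread covers disagreement between probe sets and not variation between cultures or arrays. It was 0.42 for LPS over control in LXR-DKO and 0.29 in WT, and 0.54 for LXR-DKO over WT with LPS and 0.45 without. Nr1h3, which encodes LXRalpha, had signals of 27.0 in LXR-DKO LPS, 40.4 in LXR-DKO control, 54.5 in WT LPS and 108.6 in WT control. Whether its probe set lies inside the deleted stretch is not known here, so these values are no check of the deletion. Of 13 conventional DC markers, 12 had a probe set, and Itgax, which encodes CD11c, had signals between 3848.1 and 6093.0 on the 4 arrays, lower in LXR-DKO than in WT by less than 2-fold. The list as a whole went the other way. With LPS 8 of 11 measured DC markers exceeded WT 2-fold or more in LXR-DKO and 6 of 10 without, and 0 were lower. Over all measured genes 17.8% were higher and 8.76% lower with LPS, and 12.7% and 9.28% without. The summed signal of the DC markers was 39119.6 in LXR-DKO LPS and 40906.3 in LXR-DKO control, against 19798.6 in WT LPS and 21848.8 in WT control. The DC growth factor receptor gene Flt3 reached the floor in LXR-DKO LPS alone, at 107.3, and Xcr1, a marker of a DC subset, on no array. The DC transcription factor gene Zbtb46 had 393.3 and 305.9 in LXR-DKO with and without LPS, and 29.0 and 39.4 in WT with and without LPS.

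The first question was how the family responded to the maturation stimulus in each genotype. Mmp13, Mmp14, Timp1, Timp3 and Mmp2 exceeded control 2-fold or more in LXR-DKO cells given LPS, and Mmp14 and Mmp9 did so in WT cells. No member was 2-fold or more below control in either genotype. In LXR-DKO these are 5 of 10 members higher, where 6.23% of all measured genes were, and 0 lower, where 1.82% were. In WT, 2 of 10 were higher, against 2.93% of all genes, and 0 lower, against 4.79%, although Mmp19 counted as lower in WT when the arrays were scaled to the hybridisation controls, at -1.03 on the log2 scale, and by the median over its probe sets, at -1.20. After quantile normalization 6 members were higher in LXR-DKO, Mmp9 among them at 1.05 on the log2 scale. A floor at the 75th percentile of all signals, 177.4, left 3 members higher in LXR-DKO and 1 in WT. The median log2 ratio over the 10 genes was 1.28 in LXR-DKO and 0.40 in WT, beside 0.02 and -0.05 over all measured genes.

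**Figure D1:**
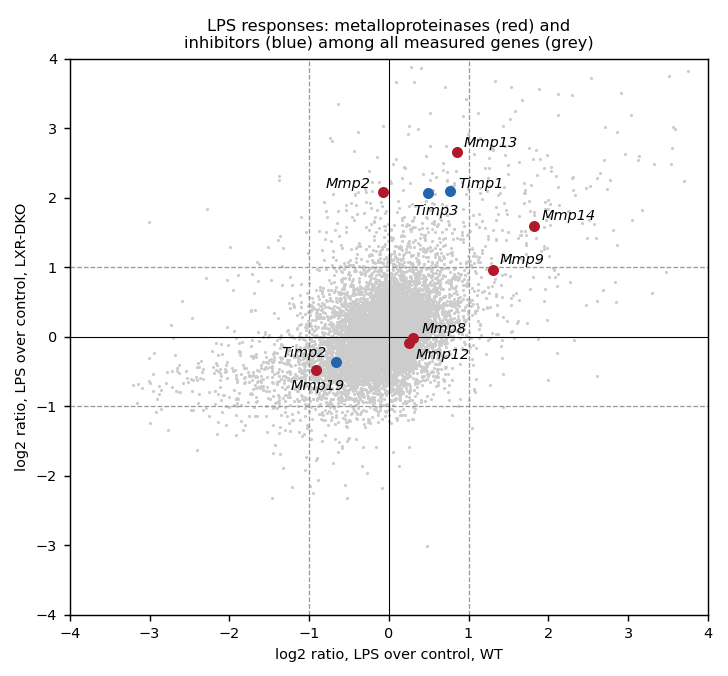
Each point is a gene, placed by its log2 ratio of LPS over control in WT (horizontal axis) and in LXR-DKO (vertical axis), 1 array a group. Grey points are the 10764 genes measured in both genotypes (36 lie outside the axes), red points metalloproteinases, blue points inhibitors, and dashed lines mark 2-fold. Mmp13, Timp1, Timp3 and Mmp2 lie above the upper dashed line and left of the right one, and Mmp14 lies beyond both.

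The second question was how LXR-DKO cells differed from WT cells. Without LPS, Mmp19, Mmp13, Timp1, Mmp14 and Mmp8 were lower in LXR-DKO by 2-fold or more and Mmp9 was higher. These are 5 of 10 members lower and 1 of 10 higher, beside 9.28% and 12.7% of all measured genes. When the arrays were scaled to the hybridisation controls, which puts the median log2 ratio of genes at the floor on all arrays at 0.29 in place of 0.04, 3 were lower and 2 higher. With LPS, Mmp19, Mmp14, Mmp8 and Mmp13 were lower in LXR-DKO and Mmp2, Mmp9 and Timp3 higher by the same measure, which is 4 lower and 3 higher of 10, beside 8.76% and 17.8% of all genes. With the floor at 177.4, 1 was higher. With LPS, 5 were lower under scaling to the same 75th percentile and after centring on the median log2 ratio, where Timp1 stood at -1.23 and -1.07. With the hybridisation controls 3 were lower. The median log2 ratio of the members was -0.75 without LPS and -0.71 with LPS, beside 0.05 and 0.15 over all genes.

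**Figure D2:**
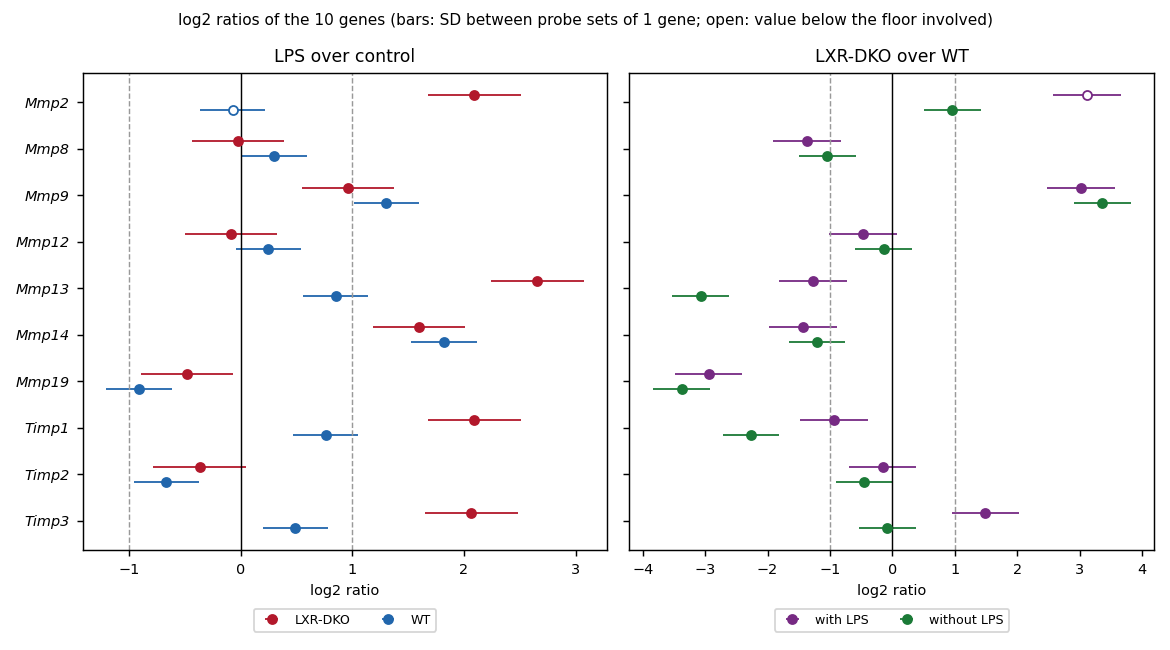
Log2 ratios of the 10 genes, LPS over control at left (LXR-DKO red, WT blue) and LXR-DKO over WT at right (with LPS purple, without LPS green). Bars are the SD of that ratio between probe sets of 1 gene, dashed lines mark 2-fold, and open points involve a value below the floor. At right, Mmp9 lies beyond 2-fold above 0 and Mmp8, Mmp13, Mmp14 and Mmp19 beyond 2-fold below 0 in both conditions.

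Mmp13, Mmp14 and Timp1 shared a pattern: each was highest in WT LPS, lowest in LXR-DKO control, higher with LPS in both genotypes and lower in LXR-DKO in both conditions. Mmp13 encodes the main interstitial collagenase of the mouse, which cuts fibrillar collagen. Its signal was 2737.4 in LXR-DKO LPS and 434.4 in LXR-DKO control, against 6594.0 in WT LPS and 3652.3 in WT control. LXR-DKO control stood far below the other 3 arrays. With LPS, Mmp13 was 6.30-fold higher in LXR-DKO and 1.81-fold higher in WT. It was 8.41-fold lower in LXR-DKO than in WT without LPS and 2.41-fold lower with LPS, and the gap between WT control and LXR-DKO LPS, 0.42 on the log2 scale, was inside the largest spread of 0.54. Scaled to the hybridisation controls, the genotype difference with LPS was -0.91 on the log2 scale, short of 2-fold.

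Timp1, a secreted inhibitor of most soluble MMPs, followed the same order with smaller differences. Its signal was 558.9 in LXR-DKO LPS and 131.1 in LXR-DKO control, against 1070.4 in WT LPS and 630.3 in WT control. It was 4.26-fold higher with LPS in LXR-DKO and 1.70-fold in WT, and 4.81-fold lower in LXR-DKO than in WT without LPS and 1.92-fold lower with LPS. The distance between the Timp1 and Mmp13 profiles, measured on log2 signals centred on each gene's mean over the 4 arrays, was 0.70, the second smallest of the 45 pairs of members. Timp1 lies on the X chromosome. Xist, the RNA of the inactive X, had 2090.4 and 2750.0 in LXR-DKO with and without LPS and 22.7 and 30.8 in WT with and without LPS, and the Y-linked Eif2s3y had 384.3 and 279.6 in LXR-DKO and 721.0 and 736.6 in WT. Of other Y-linked genes, Uty had 128.6 and 69.7 in LXR-DKO and 291.1 and 300.9 in WT, while Kdm5d had 93.2 and 56.1 in LXR-DKO and 98.1 and 126.2 in WT, close together with LPS. All 4 genes were chosen after values were seen, and the part of this difference in the Timp1 values was not tested. The difference in these sex-linked genes runs along with genotype. In every comparison of LXR-DKO with WT here, for all members and lists, it cannot be told apart from genotype.

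Mmp14 encodes a protease anchored in the cell membrane, which cuts collagen and activates the Mmp2 precursor together with Timp2. Its signal was 819.2 in LXR-DKO LPS and 270.7 in LXR-DKO control, against 2207.9 in WT LPS and 625.1 in WT control. The LPS ratios were alike in size, 3.03-fold in LXR-DKO and 3.53-fold in WT, and its other probe sets gave between 1.43 and 1.97 on the log2 scale, so all 3 passed 2-fold with LPS in both genotypes. LXR-DKO cells had 2.31-fold less than WT without LPS and 2.70-fold less with LPS. Without LPS the log2 ratio was -0.95 with the hybridisation controls and -0.87 as the median over probe sets, both short of 2-fold. All 3 probe sets were below 0 in both genotype comparisons, but 1 of 3 without LPS and 2 of 3 with LPS reached 2-fold, and the dimmest, with 8.9 in LXR-DKO control, gave -0.25 with LPS and a limit of -0.16 without.

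The promoters of Mmp13, Timp1 and Mmp14 are shown because all 3 genes were highest in WT LPS and lowest in LXR-DKO control, and those of Mmp12 and Mmp8 because they lie in the same gene cluster as Mmp13 and had little LPS response. Of the 10 members, 7 had an entry in the RefSeq promoter table of build GRCm38.p6, which gives 250 bases before to 50 after a start. Capitals mark words on either strand for AP-1 (TGANTCA), NF-kappaB and PEA3 (AGGAAG), or the TATA box (TATAAA) on the gene strand. All 5 lie on the plus strand and read 5′ to 3′.
Mmp13, chr9:7272264-7272563: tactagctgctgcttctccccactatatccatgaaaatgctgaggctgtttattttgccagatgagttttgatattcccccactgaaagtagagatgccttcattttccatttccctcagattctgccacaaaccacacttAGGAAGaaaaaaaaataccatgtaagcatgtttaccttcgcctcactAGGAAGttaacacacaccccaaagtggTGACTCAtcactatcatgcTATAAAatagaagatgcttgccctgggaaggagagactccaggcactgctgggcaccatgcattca
Timp1, chrX:20869916-20870215: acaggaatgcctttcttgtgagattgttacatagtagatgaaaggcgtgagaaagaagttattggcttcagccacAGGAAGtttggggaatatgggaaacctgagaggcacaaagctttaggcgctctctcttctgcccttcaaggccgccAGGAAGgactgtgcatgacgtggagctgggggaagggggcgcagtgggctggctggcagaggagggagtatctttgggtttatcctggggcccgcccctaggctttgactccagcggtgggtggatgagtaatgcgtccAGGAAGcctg
Mmp14, chr14:54431348-54431647: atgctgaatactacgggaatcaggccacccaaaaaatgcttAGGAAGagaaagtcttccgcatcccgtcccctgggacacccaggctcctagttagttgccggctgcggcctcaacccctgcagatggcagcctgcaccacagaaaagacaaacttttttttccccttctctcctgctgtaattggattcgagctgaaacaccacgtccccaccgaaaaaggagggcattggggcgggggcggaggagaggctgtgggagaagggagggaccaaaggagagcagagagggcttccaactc
Mmp12, chr9:7347124-7347423: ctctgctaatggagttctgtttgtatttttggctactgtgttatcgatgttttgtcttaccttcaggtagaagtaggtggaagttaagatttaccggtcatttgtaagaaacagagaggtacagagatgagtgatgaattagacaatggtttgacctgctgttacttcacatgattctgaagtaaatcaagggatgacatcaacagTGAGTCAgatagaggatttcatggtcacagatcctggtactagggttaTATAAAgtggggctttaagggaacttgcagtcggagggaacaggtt
Mmp8, chr9:7558179-7558478: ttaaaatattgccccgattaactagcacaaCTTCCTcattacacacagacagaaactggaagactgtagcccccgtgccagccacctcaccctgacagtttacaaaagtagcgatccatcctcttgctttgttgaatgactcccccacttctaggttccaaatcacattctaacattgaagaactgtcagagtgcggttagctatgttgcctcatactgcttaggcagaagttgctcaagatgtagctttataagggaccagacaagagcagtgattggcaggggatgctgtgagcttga

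The Mmp13 window held an AP-1 word 35 bases and a TATA box 16 bases before the listed start, with PEA3 words 62 and 109 bases before it. Mmp12 had entries for 2 starts, of which the one printed held an AP-1 word 44 bases before the start and the other held none. The Timp1 window held 3 PEA3 words and those of Mmp14 and Mmp8 1 each, with no AP-1 word. Over all 32851 windows of this length in the table, 7.81% held the AP-1 word, 35.4% the PEA3 word, 8.32% the TATA box and 1.47% the NF-kappaB word, which none of the member windows held. Mmp13 and the printed Mmp12 window share the AP-1 word, and their LPS ratios in LXR-DKO were 6.30-fold and 0.94-fold. Whether any of these words has a part in an LPS response was not tested.

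**Figure D3:**
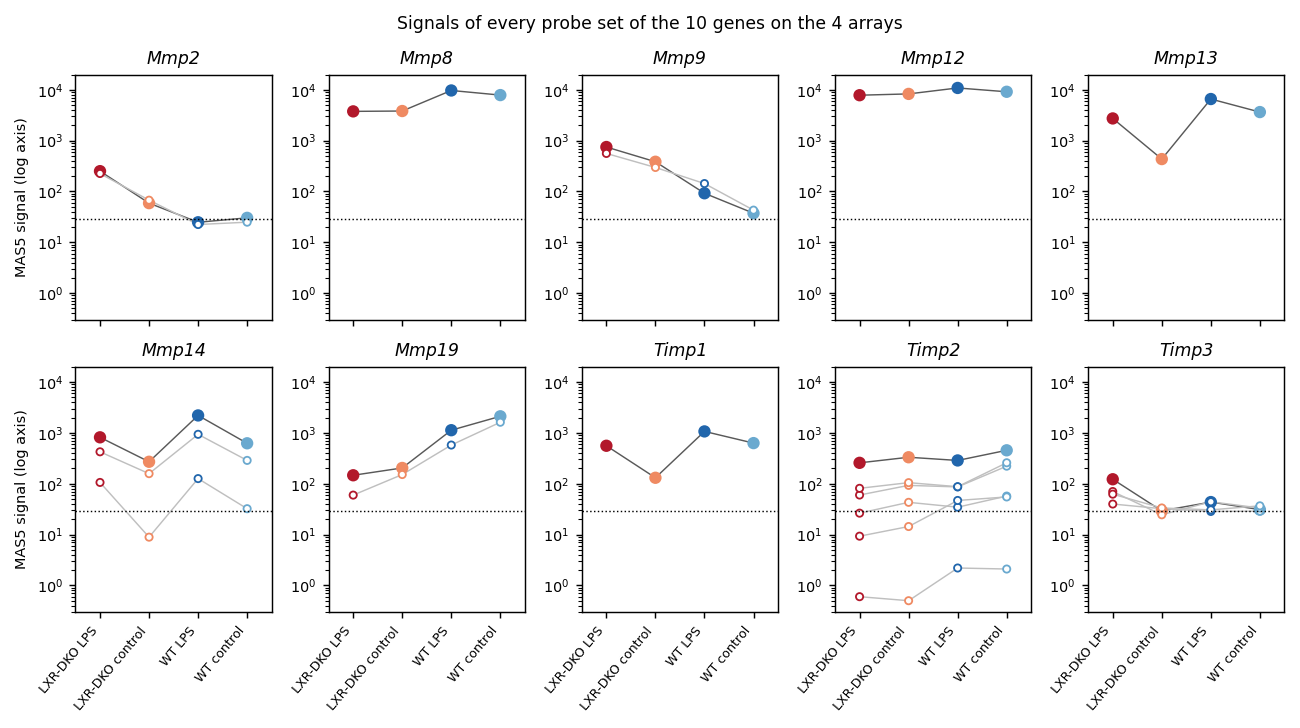
Signals of every probe set of the 10 genes on a log axis, 1 array a group, with the dotted line at the floor. Filled points are the probe set used for the gene and open points its others. Mmp13, Mmp14 and Timp1 dip in LXR-DKO control, Mmp9 and Mmp2 are highest in LXR-DKO LPS, and Mmp19 is lower on both LXR-DKO arrays.

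The gelatinase genes Mmp9 and Mmp2 had the opposite genotype difference and were highest in LXR-DKO LPS. Mmp9, gelatinase B, cuts denatured collagen and the collagen of basement membranes. Its signal was 749.8 in LXR-DKO LPS and 384.7 in LXR-DKO control, against 92.3 in WT LPS and 37.4 in WT control. Both LXR-DKO arrays were above both WT arrays, and all neighbours in this order lay further apart than the largest spread. Mmp9 was 10.3-fold higher in LXR-DKO than in WT without LPS and 8.12-fold with LPS. Its second probe set, with 560.7, 297.0, 143.3 and 43.0 in the same order of groups, gave 6.91-fold and 3.91-fold. The LPS ratio was 1.95-fold in LXR-DKO and 2.47-fold in WT, and 1.89-fold and 3.33-fold by the second probe set. With the floor at 177.4 its genotype ratio on the log2 scale was 2.08 with LPS and 1.12 without, as limits.

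Mmp2, gelatinase A, is made mainly by fibroblasts and other stromal cells. It had a signal of 251.4 in LXR-DKO LPS and 59.0 in LXR-DKO control, against 24.8 in WT LPS and 30.3 in WT control. The WT values lay near the floor, and LXR-DKO LPS stood above the other 3 arrays. Mmp2 was 4.26-fold higher with LPS in LXR-DKO, at least 8.70-fold higher in LXR-DKO than in WT with LPS, and 1.95-fold higher without LPS. A second probe set gave 3.34-fold for LPS in LXR-DKO, at least 7.81-fold for genotype with LPS and at least 2.34-fold without, and the median over both sets without LPS was 1.09 on the log2 scale, past 2-fold. In WT its log2 ratio of LPS over control was -0.07. With the floor at 177.4, both log2 ratios on LXR-DKO LPS were 0.50 and neither was counted.

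Markers of several cell types were higher in LXR-DKO beside Mmp9: those of DCs given above, of neutrophils, of mast cells, basophils and eosinophils, and of B cells. Neutrophils store both Mmp9 and Mmp8 in granules. Of 13 neutrophil markers measured without LPS, 8 exceeded WT 2-fold or more in LXR-DKO and 1 was lower, and with LPS 10 of 12 were higher and 0 lower, beside 12.7% of all genes higher without LPS and 17.8% with LPS. Their summed signal was 24000.8 in LXR-DKO LPS and 19663.0 in LXR-DKO control, against 3345.3 in WT LPS and 2291.4 in WT control. Ngp and Ltf, genes of granule proteins, were below the floor on both WT arrays, and S100a9 was below it in WT LPS. In all, 8 of the 13 neutrophil markers were below the floor in WT LPS and 6 in WT control, and these could not count as lower. Ctsg was the marker lower without LPS, at 47.5 in LXR-DKO control and 155.6 in WT control. Elane, Prtn3, Csf3r and Cxcr2 differed by less than 2-fold without LPS. Markers of mast cells, basophils and eosinophils were higher in LXR-DKO for 8 of 9 genes with LPS and 5 of 9 without. Of the B cell markers, 4 of 6 were higher with LPS and 4 of 5 without. No gene of either list was lower, but a gene below the floor in WT could not count as lower. This applied to 5 of 9 and 4 of 6 genes in WT LPS, and to 3 and 4 in WT control. The absence of lower genes is thus read only from the others. The summed signal of the mast cell, basophil and eosinophil list was 2716.0 in LXR-DKO LPS and 1920.5 in LXR-DKO control, against 484.9 in WT LPS and 648.6 in WT control. That of the B cell list was 5860.5 in LXR-DKO LPS and 3423.6 in LXR-DKO control, against 164.4 in WT LPS and 266.8 in WT control. Mmp8, the neutrophil collagenase, went the other way from the neutrophil markers. It had 3769.1 in LXR-DKO LPS and 3829.7 in LXR-DKO control, against 9716.4 in WT LPS and 7882.0 in WT control. Both WT arrays were thus above both LXR-DKO arrays, by 2.58-fold with LPS and 2.06-fold without, and LPS made differences of 0.98-fold in LXR-DKO and 1.23-fold in WT. Without LPS the genotype log2 ratio was -0.79 with the hybridisation controls, short of 2-fold. In these bulk samples more cells of a type and more RNA per cell cannot be told apart. The cells were non-adherent and enriched for CD11c, and how many cells without it remained is not known here. The part of any of these cell types in the Mmp9 difference was not tested.

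Mmp12, macrophage elastase, was the member with the smallest differences. Its signal was 7837.0 in LXR-DKO LPS and 8314.8 in LXR-DKO control, against 10890.0 in WT LPS and 9158.8 in WT control. The whole range was 1.39-fold, and each neighbouring pair in the order lay within the spread. The LPS ratio was 0.94-fold in LXR-DKO and 1.19-fold in WT.

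Mmp19 encodes a secreted protease that cuts basement membrane proteins, and of the 10 genes it lay furthest below WT in LXR-DKO cells, with LPS and without. Its signal was 146.8 in LXR-DKO LPS and 204.5 in LXR-DKO control, against 1131.0 in WT LPS and 2123.3 in WT control. The genotypes did not overlap: Mmp19 was 10.4-fold lower in LXR-DKO without LPS and 7.70-fold lower with LPS, and its second probe set gave 10.7-fold and 9.65-fold. It was also lower with LPS, at 0.72-fold in LXR-DKO and 0.53-fold in WT. The second probe set, with 59.8, 151.7, 577.2 and 1621.7 in the same order of groups, passed 2-fold lower with LPS in both genotypes, at 2.54-fold and 2.81-fold.

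Markers of osteoclasts, which share a myeloid precursor with DCs, were partly lower in LXR-DKO beside Mmp19, Mmp14 and Mmp13. Of 8 measured without LPS, 5 were lower by 2-fold or more and 1 higher, and of 9 with LPS 4 were lower and 1 higher. Over all genes 9.28% were lower and 12.7% higher without LPS, and 8.76% and 17.8% with LPS. Their summed signal was 6710.2 in LXR-DKO LPS and 4666.8 in LXR-DKO control, against 18652.6 in WT LPS and 12831.4 in WT control. The protease gene Ctsk had 94.5 and 44.5 in LXR-DKO with and without LPS and 2118.3 and 1050.2 in WT with and without LPS. Nfatc1 went the other way, with 625.8 and 963.8 in LXR-DKO and 149.7 and 287.2 in WT in the same order. The receptor gene Calcr was below the floor on all 4 arrays. Of the macrophage markers, 4 of 13 were higher and 4 of 13 lower in LXR-DKO without LPS, and over all genes 12.7% were higher and 9.28% lower. The part of such cells in the Mmp19, Mmp14 and Mmp13 values was not tested.

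**Figure D4:**
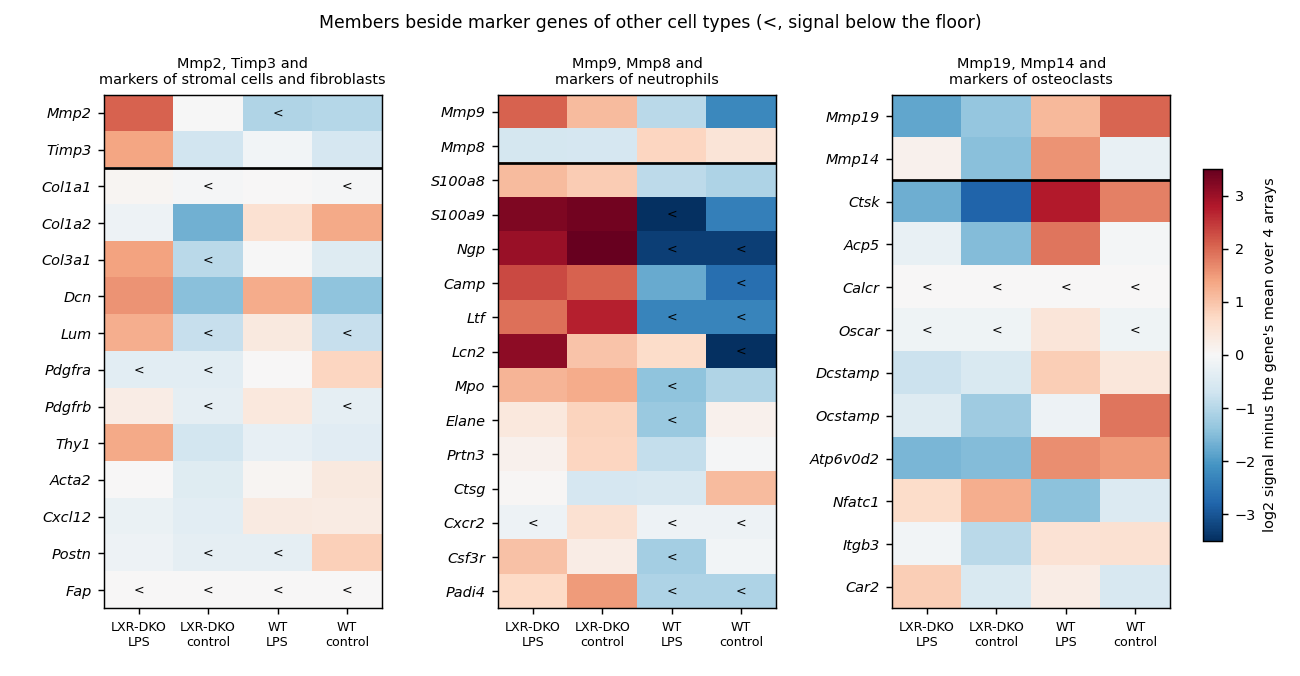
Log2 signal minus the gene's own mean over the 4 arrays (colour scale; red above the mean, blue below) for pairs of members, above the black line, and for markers of stromal cells, neutrophils and osteoclasts below it. The sign < marks a signal below the floor. Mmp9 is high on both LXR-DKO arrays as are S100a8, S100a9, Ngp, Camp and Ltf, and Mmp8 is not. Ctsg is highest in WT control, and Cxcr2 reaches the floor in LXR-DKO control alone. Mmp2 and Timp3 are highest in LXR-DKO LPS as are Col3a1, Thy1, Dcn, Lum and, close to the floor, Col1a1. Other stromal markers are highest in WT: Col1a2, Acta2, Pdgfra and Postn in WT control, and Cxcl12 and Pdgfrb in WT LPS.

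Of the other inhibitors, Timp3 stood out in LXR-DKO LPS and Timp2 was lower with LPS without passing 2-fold. Timp3 is held in the matrix and also inhibits proteases that shed cell surface proteins. Its signal was 122.6 in LXR-DKO LPS and 29.3 in LXR-DKO control, against 43.6 in WT LPS and 31.0 in WT control. LXR-DKO LPS stood above the other 3 arrays, which were near the floor, with ratios of 4.18-fold for LPS in LXR-DKO and 2.81-fold for LXR-DKO over WT with LPS. The 4 probe sets disagreed in size: their log2 ratios ran between 0.30 and 2.06 for LPS in LXR-DKO, with 2 of 4 past 2-fold, and between 0.47 and 1.49 for genotype with LPS, with 2 of 4 past 2-fold. Their median was 1.09 for LPS in LXR-DKO and 0.85 for genotype with LPS, below the threshold.

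Timp2 inhibits MMPs and, bound to Mmp14, takes part in activating Mmp2. Its signal was 257.9 in LXR-DKO LPS and 332.1 in LXR-DKO control, against 287.4 in WT LPS and 455.0 in WT control. WT control was highest, and each step down the order was within the largest spread. The log2 ratio of LPS over control was -0.36 in LXR-DKO and -0.66 in WT. Of its 6 probe sets, 1 reached the floor on no array, the measured ones were below 0 in all 4 comparisons, and 2 of 5 passed 2-fold lower with LPS in WT and likewise 2 of 5 for LXR-DKO over WT without LPS.

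Mmp2 and Timp3, both known from fibroblasts, were highest in LXR-DKO LPS, as were some stromal markers and the summed signals of the neutrophil, the B cell and the mast cell, basophil and eosinophil markers. Of 10 stromal markers measured in LXR-DKO, 5 were higher with LPS by 2-fold or more and 0 lower, and 2 of 11 were higher and 1 lower in WT, beside 6.23% of all genes higher in LXR-DKO and 2.93% in WT. The same held in LXR-DKO for 4 of 9 mast cell, basophil and eosinophil markers and 3 of 6 B cell markers. Between genotypes 2 of 11 were higher and 0 lower in LXR-DKO with LPS, and 0 of 8 higher and 3 lower without, so that the share higher with LPS lay at the 17.8% of all genes. The summed signal of the list was 2209.4 in LXR-DKO LPS and 563.3 in LXR-DKO control, against 1661.4 in WT LPS and 1145.5 in WT control. Decorin, encoded by Dcn, had 948.2 and 116.9 in LXR-DKO with and without LPS and 787.9 and 120.2 in WT with and without LPS, so it was higher with LPS in both genotypes while Mmp2 was so in LXR-DKO alone. Col3a1 had 146.7 and 23.0 in LXR-DKO and 54.8 and 40.8 in WT. Fap was below the floor on all 4 arrays and Pdgfra on both LXR-DKO arrays. The cells were non-adherent and enriched for CD11c, and how many stromal cells remained is not known here. The part of stromal cells, or of the other types named, in the Mmp2 and Timp3 values was not tested.

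The third comparison set the LPS responses of the genotypes against each other. The response, as a log2 ratio, was larger in LXR-DKO than in WT by at least 2.16 for Mmp2, 1.80 for Mmp13, 1.57 for Timp3 and 1.33 for Timp1. The Mmp2 value is a limit because WT LPS was below the floor, and its second probe set was not measured in WT. These 4 of 10 members exceeded 1, beside 7.69% of all genes, and 0 of 10 lay below -1, beside 1.99%. With the floor at 177.4, 7 members were measured and 1 exceeded 1, while Timp1 stood at 0.89. Mmp2, Mmp9 and Timp3 were not measured at that floor. The spread of this difference between probe sets was 0.43. For Mmp13 and Timp1 it went with the low level in LXR-DKO control, and for Mmp2 and Timp3 with the high level in LXR-DKO LPS. The other 6 lay between -0.34 and 0.43, and the Mmp14 value of -0.22 was 0.05 after quantile normalization.

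Mmp13, Mmp12 and Mmp8 belong to a cluster of MMP genes on chromosome 9, in the order Mmp13, Mmp12, Mmp1b, Mmp3, Mmp1a, Mmp10, Mmp8, Mmp27, Mmp20 and Mmp7 in the RefSeq annotation. Neighbours differed in their responses. Mmp3, stromelysin 1, had 92.4 in LXR-DKO LPS and 239.7 in WT LPS and was below the floor on both control arrays, which makes LPS ratios of at least 3.20-fold in LXR-DKO and at least 8.29-fold in WT. Mmp10, stromelysin 2, had 60.9 in LXR-DKO LPS and 37.5 in WT LPS, or at least 2.11-fold and at least 1.30-fold above control. Between them Mmp1a reached the floor on no array, nor did Mmp1b and Mmp20, while Mmp12 and Mmp8 on either side of Mmp3 and Mmp10 had LPS ratios between 0.94-fold and 1.23-fold.

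**Figure D5:**
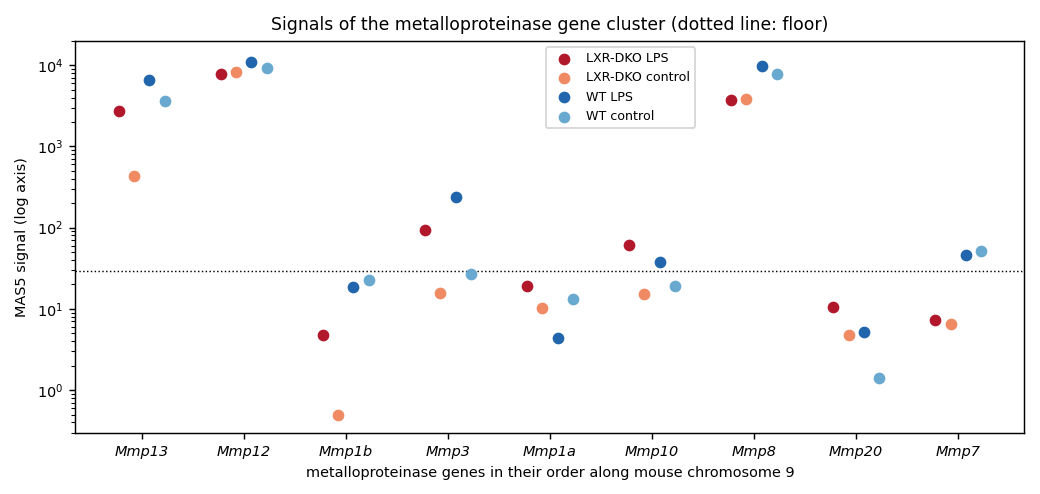
Signals on a log axis of the 9 cluster genes with a probe set, in their order along chromosome 9, with the floor dotted. Mmp13 varies between 434.4 and 6594.0 while its neighbour Mmp12 lies between 7837.0 and 10890.0, and Mmp3 is above the floor on both LPS arrays and below it on both control arrays.

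Outside the 10 genes the family gave little signal. Of 17 other MMP and TIMP genes listed, 12 had a probe set, and 4 reached the floor in LXR-DKO LPS, 1 in LXR-DKO control, 6 in WT LPS and 2 in WT control. With LPS, 2 of 5 measured passed 2-fold higher in LXR-DKO, Mmp3 and Mmp10, and 1 of 6 in WT, Mmp3. Over all measured genes 6.23% did so in LXR-DKO and 2.93% in WT. In neither genotype was one lower, but Mmp3, Mmp10 and Mmp17 were below the floor on both control arrays and could not count as lower. Of the genes listed, Mmp3 alone differed 2-fold between genotypes, with a log2 ratio of LXR-DKO over WT with LPS of -1.38.

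Genes that activate, dock or clear MMPs went both ways between the genotypes. Of this list 2 of 11 measured were higher and 3 lower in LXR-DKO by 2-fold or more with LPS, and 1 of 10 higher and 2 lower without. Over all genes 17.8% were higher and 8.76% lower with LPS, and 12.7% and 9.28% without, so the shares higher lay close to those of all genes. Lrp1, the receptor that clears MMP and TIMP complexes, had 467.3 and 198.5 in LXR-DKO with and without LPS and 1573.0 and 1504.4 in WT with and without LPS, a log2 genotype ratio of -1.75 with LPS and -2.92 without. The tetraspanin gene Cd151 stood at -1.83 and -2.01, and Cd9 at -1.25 and -0.79. Lcn2, whose product binds Mmp9 in human neutrophils and which also counts among the neutrophil markers, was higher at 2.50 and at least 5.78. Furin, the protease that activates Mmp14, had log2 ratios of 1.01 and 0.44. The list's median log2 ratio was -0.24 with LPS and -0.39 without, beside 0.15 and 0.05 over all genes.

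The plasminogen system activates several MMP precursors in turn. With LPS, 1 of 8 measured genes of that list passed 2-fold higher in LXR-DKO and 1 of 9 in WT. Over all measured genes 6.23% did so in LXR-DKO and 2.93% in WT, and nothing about the list is read from 1 gene. The gene was Serpinb2, an inhibitor of plasminogen activators, at 5.82-fold and 8.73-fold. Plaur, the receptor for urokinase, had 1579.9 and 1426.2 in LXR-DKO with and without LPS and 5689.5 and 5080.7 in WT with and without LPS. It was thus lower in LXR-DKO in both conditions, with log2 ratios of -1.85 with LPS and -1.83 without. The thrombin receptor gene F2r went the opposite way, at 4.29 and 3.07, and Thbd stood at -1.93 and -2.48, both limits. Genotype calls were 1 higher and 2 lower in both conditions, of 9 measured with LPS and 10 without. Over all genes 17.8% were higher and 8.76% lower with LPS, and 12.7% and 9.28% without.

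Transcription factors known to act on MMP promoters also went both ways. Of 17 measured, 4 exceeded WT 2-fold or more in LXR-DKO and 3 were lower, both with LPS and without. Over all genes 17.8% were higher and 8.76% lower with LPS, and 12.7% and 9.28% without. The list's median log2 ratio was 0.52 with LPS and 0.61 without, beside 0.15 and 0.05 over all genes. With so few genes and 1 array a group, nothing particular to the list is read from these values. Fos, a subunit of AP-1, had 136.2 and 73.3 in LXR-DKO with and without LPS and 1430.0 and 1756.8 in WT with and without LPS. Fosl1, another AP-1 subunit, had log2 genotype ratios of -1.45 with LPS and -1.81 without, both limits. The NF-kappaB genes Relb, at 2.64 and 2.20, and Nfkb2, at 2.15 and 1.42, were higher. Jun and Jund lay between -0.12 and 0.88. These values stand beside those of the members, and no link between a factor and a member was tested.

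For members whose signal spanned at least 4-fold, the genes with the most similar profile were sought over the 4 arrays, by the distance defined above. The nearest to Mmp14 was Sdc1 at 0.13, followed by Tnf at 0.28 and Oas1a at 0.29. For Mmp2 they were Irf8 at 0.23, Slc22a23 at 0.28 and Mefv at 0.29, and for Mmp13 Blnk at 0.25, Exoc3l4 at 0.51 and Ccl4 at 0.52. Mmp19 was nearest to Emp1 and Gask1b, both at 0.27, and Tspan4 at 0.46. Timp1 was nearest to Pmp22 at 0.30, Insl6 at 0.35 and Nrp2 at 0.42, and Timp3 to the stromal marker Thy1 at 0.27, Pdia5 at 0.35 and Il15ra at 0.36. Mmp9 had no equally close gene, with Ifi27l2a at 0.56, Ccl22 at 0.57 and Marcksl1 at 0.74. With 4 arrays such distances describe these cultures only, and 10113 genes were compared with Mmp2 and 9347 with each of the others.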

How the data were processed

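Transcripts were measured on 1 single-channel oligonucleotide array for each of 4 samples. MAS5 made the signals, per the submitters' processing notes, and its version and settings are not given in the sources used here. The deposited intensity values are on a linear scale, and all 4 arrays have a mean of 200.0 once 2% of signals are trimmed from either tail. Labelled cRNA came from a target preparation of 2 cycles, per the labels' protocols.

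Of 45101 probe sets, 64 controls were left out, and 34945 of the other 45037 had 1 gene symbol, 932 several and 9160 none in the platform annotation. Symbols were checked through gene numbers against the RefSeq table of GRCm38.p6, where 34754 matched. Ratios of floored signals were computed in Python 3.11.15 with pandas 2.3.3. A gene was measured when at least 1 array compared reached the floor of 28.9, and counted at a log2 ratio of 1. With 1 array a group no p-value was computed, and having 4 arrays limits how precise a ratio can be. Ratio counting was tested on simulated data. The members, lists and rules were chosen with earlier results of these data known. Named were all members, up to 4 genes of each list with the largest ratios and members that go the other way, Nr1h3, and the 3 most similar profiles of members spanning 4-fold. Examples of marker genes, Furin, Adam17, Jun and Jund were picked from their lists after their values were seen. The 9 alternatives changed the scaling, the floor or the choice of probe set.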

Additional observations from a re-analysis of the deposited data

Results flagged for a closer look

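In 4 cases a member went in opposite directions in the groups compared, and the differences were not tested because each group has 1 array. Mmp2 had a log2 LPS ratio of 2.09 in LXR-DKO and of -0.07 in WT, the WT values lying near the floor. Mmp8 had -0.023 in LXR-DKO and 0.30 in WT, and Mmp12 had -0.0854 in LXR-DKO and 0.25 in WT, all within or close to the spread between probe sets. Timp3 had a log2 ratio of LXR-DKO over WT of 1.49 with LPS and of -0.08 without LPS.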

How the results depend on the processing

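Of 438 member ratios recomputed under the 9 alternatives, 425 moved by less than the spread between probe sets and 13 by more. Of those counted as 2-fold, 0 reversed their sign. Ratios not measured under an alternative are not among the 438. Many ratios could not move. The probe sets chosen for members carry no suffix, so leaving out those with a suffix changed nothing. A lower floor touched Mmp2 alone, and the median over probe sets left members with 1 probe set as they were. Scaling to the hybridisation controls gave 1 member lower with LPS in WT, and 2 higher and 3 lower in LXR-DKO over WT without LPS. It put the median log2 ratio at 0.48 in LXR-DKO over WT with LPS and 0.29 without, against 0.13 and 0.04 as deposited, and at -0.18 for LPS in WT. The 75th percentile scaling gave medians of -0.15 and -0.13 for the same genotype ratios, and 5 members lower in LXR-DKO over WT with LPS. Among all genes, those higher were 67.0% of the genes counted with LPS in LXR-DKO over WT, but 47.1% under 75th percentile scaling, 55.4% after quantile normalization and 84.7% with hybridisation controls, and 57.7% without LPS, but 44.1% and 74.3%. For LPS in WT they were 38.0%, but 50.6% under 75th percentile scaling. A floor at the 75th percentile left 3 members higher with LPS in LXR-DKO, 1 in WT, 1 in LXR-DKO over WT with LPS and 1 for the difference of responses, since fewer signals reach it. The median over probe sets gave 1 member lower with LPS in WT and 2 higher in LXR-DKO over WT without LPS. Signs of values that were not counted turned for Mmp12 at 0.12, Timp3 at 0.17 and Timp2 at 0.21 in LXR-DKO over WT with hybridisation controls, the last with LPS, and for Mmp8 at 0.01 for LPS in LXR-DKO under 75th percentile scaling. No paired analysis was possible because each group has 1 array. Signals near the floor, as for Mmp2 in WT and Timp3 on 3 arrays, limit what ratios can show.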

Other observations

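Genes of matrix proteins that MMPs cut were also measured. Of 20 measured in LXR-DKO, 5 were higher with LPS by 2-fold or more and 0 lower, and of 20 in WT 2 were higher and 1 lower, beside 6.23% of all genes higher and 1.82% lower in LXR-DKO and 2.93% and 4.79% in WT. Fibronectin, Fn1, had 1861.5 and 2806.1 in LXR-DKO with and without LPS and 131.0 and 183.5 in WT with and without LPS. Thrombospondin 1, Thbs1, was higher with LPS at 2.98-fold in LXR-DKO and 3.86-fold in WT. Col1a2, also a stromal marker, went the other way from Fn1 between genotypes, with log2 ratios of -0.73 with LPS and -3.03 without, and Tgfbi had -2.04 and -1.84.

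Among the ADAM and ADAMTS proteases, relatives of MMPs that shed surface proteins or cut proteoglycans, 4 of 11 measured genes exceeded WT 2-fold or more in LXR-DKO with LPS and 1 was lower, beside 17.8% and 8.76% of all genes. Adam19 had 572.8 and 285.2 in LXR-DKO with and without LPS and 40.6 and 35.2 in WT with and without LPS. Adamts10 stood at a log2 ratio of 2.02 with LPS and 1.38 without, and Adamts1 at -1.23 and -0.47. The sheddase gene Adam17 had 1060.2 and 880.4 in LXR-DKO and 1709.6 and 1047.2 in WT, with no 2-fold difference.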
